A study of Mus musculus with 9 samples.

Results

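The 46 genes described here encode proteins that copy the genome or carry a cell through division. They were taken as a list of symbols, with no threshold on a measured value, out of 54532 gene rows in the deposited count table. The list was split by function into 27 mitotic genes and 18 genes of the G1/S transition and S phase (below, S-phase genes), with the chromatin protein gene Hmgb2 kept apart. All 46 were among the 15224 genes with enough counts to be tested, and the lowest count of any of them in any library was 6.

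The libraries were made from the submandibular gland, a salivary gland, of wild-type mice (labelled WT) exposed to 10 Gy of radiation. RNA from sections of the gland was sequenced 30, 60 and 90 days later, with 3 libraries per day, and the stated purpose was to follow the gland into lasting loss of function. No other allele or agent is given for these 9 libraries, and irradiation is common to all of them. Non-irradiated glands, which the protocol mentions, were not analysed here, so each value is set only against the other irradiated days. The labels give no age, sex or batch, and time since irradiation cannot be told apart from the age of the animals. They also do not say that the 3 libraries of a day came from 3 animals. The p-values thus set differences between days only against the spread between these samples, and that spread may be technical.

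A dividing cell turns on these genes in waves. E2F factors, released from the retinoblastoma protein by G1 cyclin kinases, drive genes for origin licensing, the replicative helicase and deoxynucleotide supply before and during S phase. A later wave, driven by the MuvB complex with B-Myb and FoxM1 at promoters that hold CHR and CCAAT elements, supplies the cyclins, kinases and spindle proteins of mitosis. In the adult salivary gland most acinar and duct cells rest outside the cell cycle, and few divide at any time. In whole gland RNA, fewer cells in cycle and less RNA per cycling cell cannot be told apart.

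The promoters of the 2 classes held these elements in different shares. RefSeq promoters on GRCm38.p6, each 300 bases long and reaching from 250 bases before the transcript start to 50 bases after it, were found for 39 of the 46 genes, and none was matched for Aurkb, Ccna2, Kif20a, Tpx2, Ccne2, Gins2 and Mcm4. Both strands were searched for the CHR element (TTTGAA or TTTAAA, the latter its own reverse complement), the CCAAT box (CCAAT) and E2F sites (TTTCCCGC, TTTGGCGC, TTTCGCGC or TTTGCCGC). An E2F match on one strand can overlap a match on the other, as in Mcm5 and Mcm6. Promoters are printed as examples of these elements, first for the mitotic genes Cdc20 (chr4:118437294-118437593, minus strand) and Cdk1 (chr10:69352863-69353162, minus strand). Those of the S-phase genes Mcm5 (chr8:75109259-75109558, plus strand) and Mcm6 (chr1:128359656-128359955, minus strand) follow. Each runs 5′ to 3′ on the strand of the gene, and capitals mark the matches.
Cdc20 promoter: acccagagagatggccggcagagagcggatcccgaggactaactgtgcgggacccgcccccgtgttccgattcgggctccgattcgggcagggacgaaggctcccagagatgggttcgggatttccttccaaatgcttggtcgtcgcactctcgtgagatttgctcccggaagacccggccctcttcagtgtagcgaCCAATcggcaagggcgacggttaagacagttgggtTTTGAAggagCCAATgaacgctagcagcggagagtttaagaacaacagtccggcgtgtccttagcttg
Cdk1 promoter: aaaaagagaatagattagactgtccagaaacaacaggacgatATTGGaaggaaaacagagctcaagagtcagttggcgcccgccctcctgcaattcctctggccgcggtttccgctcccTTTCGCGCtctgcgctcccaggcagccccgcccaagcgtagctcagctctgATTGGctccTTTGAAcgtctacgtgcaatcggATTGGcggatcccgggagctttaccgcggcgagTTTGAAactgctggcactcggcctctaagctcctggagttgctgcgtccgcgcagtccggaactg
Mcm5 promoter: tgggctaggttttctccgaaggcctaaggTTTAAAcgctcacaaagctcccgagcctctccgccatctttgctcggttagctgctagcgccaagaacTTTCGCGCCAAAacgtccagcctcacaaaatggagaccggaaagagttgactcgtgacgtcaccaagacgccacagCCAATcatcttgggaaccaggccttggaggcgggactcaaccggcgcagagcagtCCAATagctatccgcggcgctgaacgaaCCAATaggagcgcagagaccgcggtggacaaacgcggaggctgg
Mcm6 promoter: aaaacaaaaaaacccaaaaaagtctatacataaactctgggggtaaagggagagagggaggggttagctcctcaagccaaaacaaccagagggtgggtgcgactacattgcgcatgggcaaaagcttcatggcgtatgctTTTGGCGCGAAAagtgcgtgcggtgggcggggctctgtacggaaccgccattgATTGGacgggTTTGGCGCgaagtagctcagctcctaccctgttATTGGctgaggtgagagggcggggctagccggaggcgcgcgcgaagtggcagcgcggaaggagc
The Cdc20 promoter held 1 CHR match between 2 CCAAT boxes and no E2F match. In the Cdk1 promoter there were 2 CHR matches, 3 CCAAT boxes on the opposite strand and 1 E2F match, the only E2F match among the mitotic promoters. Mcm5 had 2 overlapping E2F matches on opposite strands, along with 1 CHR match and 3 CCAAT boxes. Mcm6 had 3 E2F matches, of which 2 overlapped in the same way, with 2 CCAAT boxes and no CHR match.

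Over the mitotic genes, 22 of 24 promoters (91.7%) held a CHR match, against 6 of 17 S-phase promoters (35.3%) and 27.6% of all 32851 promoters in the table. CCAAT boxes were in 20 of 24 mitotic promoters (83.3%), 12 of 17 S-phase promoters (70.6%) and 37.4% of all promoters. E2F matches were in 7 of 17 S-phase promoters (41.2%), 1 of 24 mitotic promoters (4.17%) and 2.27% of all promoters. Prc1, Mcm7 and Uhrf1 each had an additional promoter entry, and the Prc1 windows overlap, so the same letters were counted again there. By gene, CHR matches were in 21 of 23 mitotic and 6 of 15 S-phase genes. CCAAT boxes were in 19 of 23 and 10 of 15 genes, and E2F matches in 1 of 23 and 7 of 15. A match describes letters in this window and not a bound site.

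Total counts ran from 16541396 to 26065856 per library, and 3 counts, the limit that a count of 0 allows, correspond to 0.115 to 0.181 CPM, counts brought to one common library total. Such limits cover counting error only. All CPM values of genes below are scaled in addition by the trimmed mean of M values (TMM). A single secretory transcript, Mucl2, took 31.4% to 42.8% of the counts, most in library 1 of 30 days, where the scaling factor was also lowest at 0.824. No 2 libraries of a day agreed within counting noise. Transcript levels of the proliferation genes were low. Per kilobase of exon and on the same CPM scale (RPKM), the median mitotic gene stood at 0.679, above 24.6% of the tested genes, and the median S-phase gene at 1.78, above 44%. The RPKM ranged from 0.197 for Cenpf, a kinetochore protein, to 3.28 for Cdc20 in the mitotic class, and from 0.251 for Cdc6 to 11.2 for Pcna in the S-phase class.

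No proliferation gene passed for any pair of days by edgeR's quasi-likelihood test with Benjamini-Hochberg adjustment at 0.05. The count was 0 of 46 for 60 against 30 days (1.56% of all tested genes were called), 0 for 90 against 60 days (0.256%) and 0 for 90 against 30 days (3.57%). A test for any difference among the 3 days also gave 0 of 46 (3.29%). The smallest adjusted p-values were 0.244, 0.356, 0.252 and 0.277 in that order. At an unadjusted p under 0.05, edgeR gave 3 genes for 60 against 30 days (Kif11, Cdca8 and Anln, against 12.4% of all genes). It gave 1 for 90 against 60 days (Ccne1, 10.8% of all genes), 1 for 90 against 30 days (again Ccne1, 16.8%) and 2 for any difference (Kif11 and Ccne1, 16.7%). DESeq2 and limma-voom also called 0 genes in all 4 tests, with 4, 2, 2 and 2 genes at an unadjusted p under 0.05 for DESeq2 and 3, 2, 1 and 1 for limma-voom. In the edgeR fit of all 9 libraries with the filter on low counts and no block, the share of these genes at the unadjusted threshold was thus below that of all genes in each test. The count of 3 for 60 against 30 days was unstable, at 0 without library 1 of 30 days or without library 3 of 60 days, 8 without library 3 of 30 days, 5 without library 2 of either day, 12 without the filter on low counts, and 2 of 40 with at least 10 counts in every library. The share of all genes at that threshold was not computed in these settings, nor for DESeq2 and limma-voom. Whether those counts lie above or below it is thus not known.

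**Figure D1:**
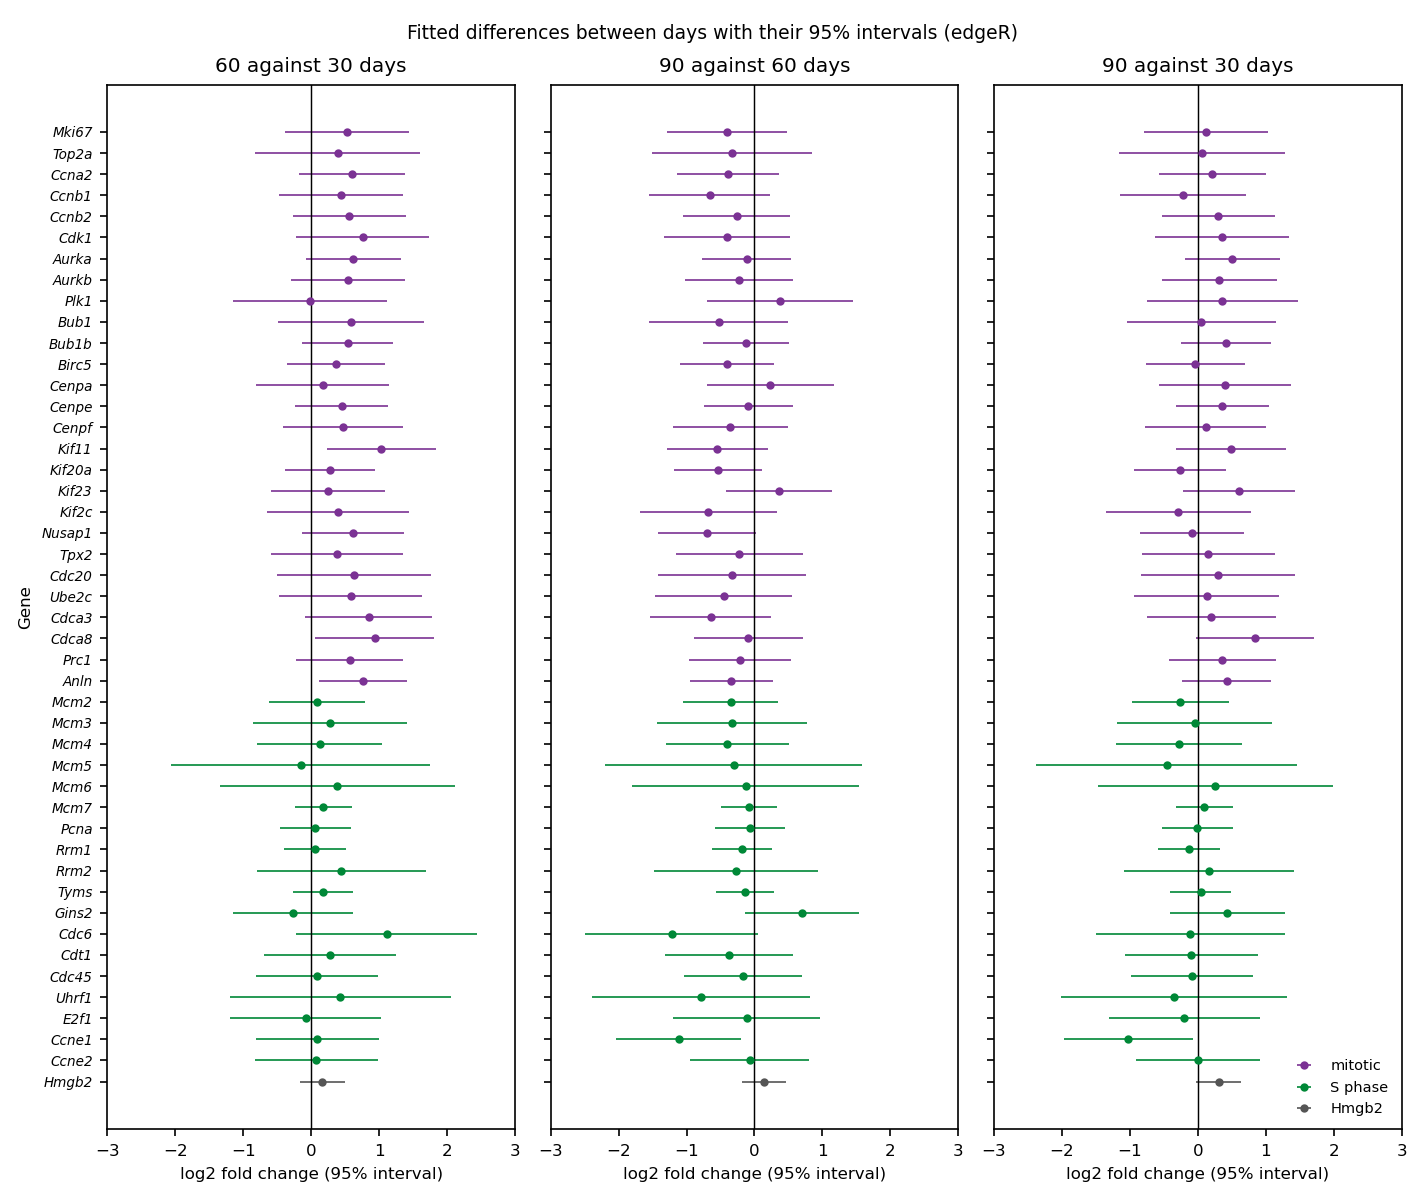
Fitted log2 fold change (x axis, with 95% interval) of each of the 46 genes (y axis) for the 3 pairs of days, with mitotic genes in purple, S-phase genes in green and Hmgb2 in grey. Purple points lie right of 0 for 26 of 27 genes at 60 against 30 days and left of 0 for 24 of 27 at 90 against 60 days, and all but 3, 1 and 1 of the 46 intervals span 0 in the 3 panels.

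Class medians are given beside those of all genes as a description. Their spread between libraries of a day, as an SD of the class median of a single library on the log2 scale, was 0.57 for mitotic and 0.52 for S-phase genes. Each SD was larger in size than the medians of its own class given in this paragraph. For 60 against 30 days the mitotic median was larger than it with limma-voom (0.64) and with a block for library number (0.61). That SD is for 1 library, while a class median compares days of 3 libraries each, so the 2 are not measured alike. Mitotic genes had a median log2 fold change of 0.54 for 60 against 30 days, with 26 of 27 above 0, where all tested genes had a median of -0.00. For 90 against 60 days the mitotic median was -0.34 with 3 of 27 above 0, and for 90 against 30 days 0.30 with 22 of 27 above 0 (all genes 0.00 and 0.01). S-phase genes had medians of 0.11 (15 of 18 above 0), -0.23 (1 of 18) and -0.09 (6 of 18) in the same order. The 3 contrasts share libraries, so these values are not independent of each other. Genes of a class also varied together between libraries, as given further on, so a count of signs within a class is not a count of separate events.

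Summed over the class, the mitotic genes reached 40.0, 102.4 and 116.3 CPM in the 3 libraries of 30 days, 110.6, 101.6 and 166 CPM at 60 days, and 73.2, 124.5 and 107.0 CPM at 90 days. The sums were 86.2 ± 40.7, 126.0 ± 34.8 and 102 ± 26.1 CPM (SD, n = 3). Library 1 of 30 days lay far below the other two of its day, and the ranges of the 3 days overlapped. S-phase sums were 99.6, 156 and 185 CPM at 30 days, 121, 108.5 and 264 CPM at 60 days, and 109.7, 147 and 163 CPM at 90 days. Their means were 147 ± 43.2, 164.5 ± 86.2 and 139.7 ± 27.3 CPM (SD, n = 3), and at 60 days library 3 held more than the other two together. The mitotic sum divided by the S-phase sum was 0.401, 0.658 and 0.630 at 30 days, 0.913, 0.936 and 0.629 at 60 days, and 0.667, 0.849 and 0.657 at 90 days. Libraries 1 and 2 of 60 days thus held the 2 highest ratios, while library 3 of that day had a ratio like those of libraries 2 and 3 of 30 days.

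**Figure D2:**
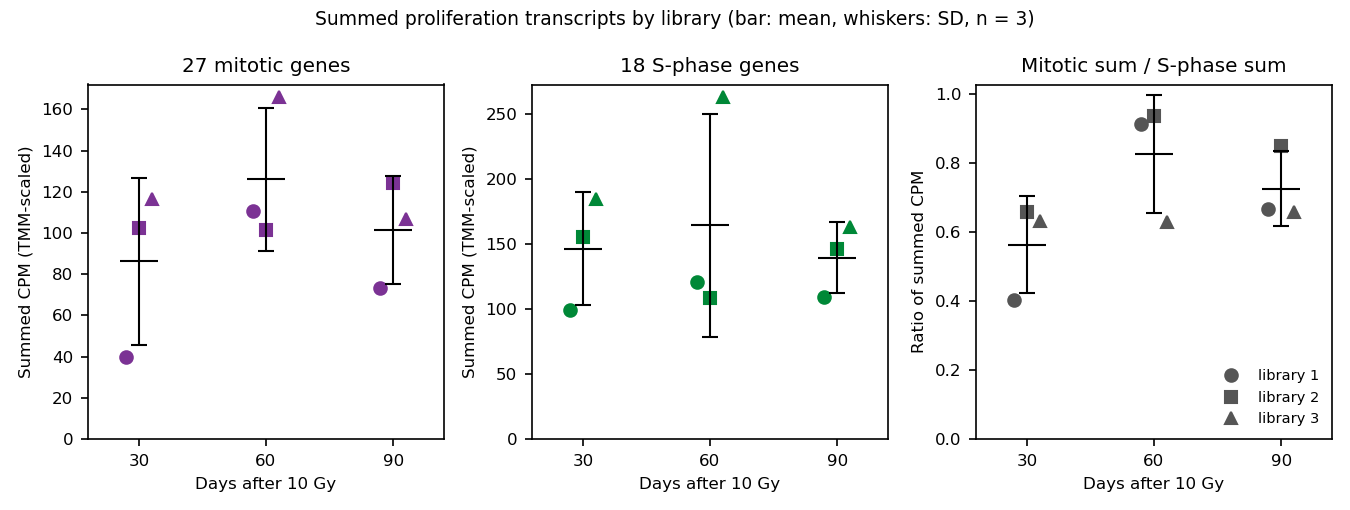
Summed TMM-scaled CPM of the 27 mitotic genes, of the 18 S-phase genes and their ratio (y axes) against days after 10 Gy (x axis), with 1 point per library, the mean as a bar and the SD as whiskers (n = 3). The lowest mitotic sum (40.0 CPM) is library 1 of 30 days and the highest (166 CPM) is library 3 of 60 days.

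Mki67, which encodes the Ki-67 antigen of the mitotic chromosome surface (chr7:135689784-135716361, minus strand on GRCm38, as are all gene positions here), measured 7.44, 15.6 and 15.3 CPM at 30 days, 15.5, 11.7 and 28.4 at 60 days and 11.1, 16 and 14.9 at 90 days. Day means were 12.8 ± 4.64, 18.5 ± 8.78 and 14 ± 2.53 CPM (SD, n = 3), and the log2 fold change was 0.53 (SE 0.39, adjusted p = 0.663) for 60 against 30 days. Library 3 of 60 days was the highest and library 1 of 30 days the lowest of the 9. Top2a, the topoisomerase that untangles sister chromatids (chr11:98992943-99024189, minus strand), measured 3.54, 10.8 and 12.1 CPM at 30 days, 6.91, 9.77 and 18.3 at 60 days and 6.81, 11.1 and 9.94 at 90 days. At 30 days its libraries spanned 3.54 to 12.1 CPM, a wider range than the distance between any 2 of the day means of 8.81 ± 4.61, 11.7 ± 5.91 and 9.3 ± 2.23 CPM (SD, n = 3). The log2 fold change for 60 against 30 days was 0.39 (SE 0.51, adjusted p = 0.827).

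Cdk1 is the kinase that starts mitosis, and Ccna2, Ccnb1 and Ccnb2 are its cyclins. Cdk1 (chr10:69335146-69352938, minus strand) measured 1.13, 4.1 and 3.91 CPM at 30 days, 5.01, 3.03 and 7.59 at 60 days and 2.63, 4.19 and 5.12 at 90 days. The 60-day and 30-day ranges overlapped through library 2 of 60 days, and the log2 fold change was 0.76 (SE 0.45, adjusted p = 0.544). Ccnb1 (chr13:100778650-100786570, minus strand) measured 1.06, 3.27 and 5.27 CPM at 30 days, 4.45, 4.84 and 3.92 at 60 days and 1.62, 3.37 and 3.41 at 90 days. Every 60-day library exceeded every 90-day library, with library 3 of 30 days the highest of all, and the log2 fold change for 90 against 60 days was -0.66 (SE 0.41, adjusted p = 0.606). Ccnb2 (chr9:70407692-70421547, minus strand) measured 0.496, 2.5 and 2.55 CPM at 30 days, 3.07, 2.67 and 2.59 at 60 days and 2.19, 2.85 and 1.86 at 90 days. All 3 of its 60-day libraries lay above the 30-day libraries, the nearest by 2.59 against 2.55 CPM, and the log2 fold change was 0.56 (SE 0.40, adjusted p = 0.613). It lies outside the set of genes chosen for full values and is given because its groups did not overlap.

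Groups without overlap were no more frequent among these genes than among all genes. All 60-day libraries lay above all 30-day libraries for 2 of 46 genes, Ccnb2 and Anln (8.65% of all tested genes did so), and below them for 0 of 46 (8.22%). All 90-day libraries lay above all 60-day libraries for 0 of 46 (8.3%) and below them for 2, Ccnb1 and Ccne1 (7.64%). For 90 against 30 days the counts were 1 above, Kif11 (11.4%), and 1 below, Ccne1 (11.8%).

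Among the mitotic kinases, Aurka, which acts at the spindle poles (chr2:172356190-172370535, minus strand), measured 1.42, 2.91 and 2.55 CPM at 30 days, 3.97, 2.31 and 4.38 at 60 days and 2.16, 4.09 and 3.66 at 90 days. Its log2 fold change was 0.62 (SE 0.33, adjusted p = 0.467) for 60 against 30 days and 0.51 (SE 0.33, adjusted p = 0.472) for 90 against 30 days. Plk1, a kinase of centrosome maturation and mitotic exit, was the mitotic gene that was not above 0 for 60 against 30 days, at -0.02 (SE 0.52, adjusted p = 0.993). Aurkb, the kinase of the chromosomal passenger complex, had a log2 fold change of 0.54 in that contrast. Cdca8, which encodes the passenger subunit borealin (chr4:124918465-124939311, minus strand), measured 0.496, 1.25 and 2.49 CPM at 30 days, 2.16, 2.67 and 3.42 at 60 days and 1.75, 3.09 and 2.91 at 90 days. Library 1 of 30 days, at 0.496 CPM, was the lowest, and the log2 fold change of Cdca8 was 0.94 (SE 0.42, adjusted p = 0.356) for 60 against 30 days and 0.84 (SE 0.41, adjusted p = 0.314) for 90 against 30 days. Birc5, the survivin subunit of the same complex, stood at 0.37 and -0.04 in those contrasts.

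The kinesin motors differed among themselves. Kif11, the motor that pushes spindle poles apart (chr19:37376403-37421859, plus strand), measured 1.42, 2.56 and 2.61 CPM at 30 days, 3.45, 2.4 and 7.72 at 60 days and 2.8, 3.51 and 3.01 at 90 days. Library 3 of 60 days held more than 2 times any other library. Its log2 fold change for 60 against 30 days, 1.04 (SE 0.38, adjusted p = 0.244), had the smallest p-value of the 46 genes, with a 95% interval of 0.24 to 1.83. Kif20a, a motor of the central spindle (chr18:34624613-34633277, plus strand), measured 1.42, 2.5 and 3.37 CPM at 30 days, 3.19, 2.13 and 3.59 at 60 days and 1.82, 2.17 and 2.16 at 90 days, and its log2 fold change was -0.54 (SE 0.31, adjusted p = 0.561) for 90 against 60 days. Kif23, a kinesin of the midzone centralspindlin complex (chr9:61915905-61946774, minus strand), measured 1.84, 1.19 and 1.89 CPM at 30 days, 1.25, 1.31 and 3.25 at 60 days and 1.72, 2.61 and 3.21 at 90 days. Its lowest library was library 2 of 30 days, where Kif11 and Kif20a were lowest in library 1 of that day. The log2 fold change of Kif23 was 0.61 (SE 0.39, adjusted p = 0.469) for 90 against 30 days. Kif2c, which removes tubulin from microtubule ends at kinetochores, had log2 fold changes of 0.39, -0.68 and -0.28 for 60 against 30, 90 against 60 and 90 against 30 days. It was lowest in library 1 of 90 days, at 0.539 CPM against 0.567 in library 1 of 30 days.

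Nusap1, a microtubule-bundling spindle protein (chr2:119618298-119651244, plus strand), measured 0.922, 2.97 and 2.61 CPM at 30 days, 2.16, 3.53 and 4.42 at 60 days and 1.92, 2.23 and 2.06 at 90 days. The 60-day range overlapped that of 90 days through library 1 of 60 days, and the log2 fold change for 90 against 60 days was -0.70 (SE 0.35, adjusted p = 0.481). Anln, which encodes the cleavage-furrow scaffold anillin (chr9:22332012-22389188, minus strand), measured 1.21, 3.15 and 2.49 CPM at 30 days, 3.71, 3.21 and 4.8 at 60 days and 2.46, 3.61 and 3.21 at 90 days. Its biological coefficient of variation (BCV, edgeR's estimate of the spread between libraries of one day beyond counting noise) of 0.230 was the smallest of the mitotic class, and its log2 fold change for 60 against 30 days was 0.76 (SE 0.31, adjusted p = 0.30) with a 95% interval of 0.11 to 1.41. Cdc20, the activator of the anaphase-promoting complex (chr4:118432901-118437352, minus strand), measured 1.49, 6.0 and 6.99 CPM at 30 days, 7.12, 6.74 and 8.8 at 60 days and 3.51, 8.9 and 5.57 at 90 days. Library 1 of 30 days, at 1.49 CPM, stood against 6.0 and 6.99 CPM in the others of its day, and the log2 fold change for 60 against 30 days was 0.63 (SE 0.50, adjusted p = 0.682). Cdca3, a substrate adaptor for degradation of the mitosis-entry inhibitor Wee1 (chr6:124829547-124833701, plus strand), measured 1.63, 2.02 and 6.1 CPM at 30 days, 6.95, 5.97 and 4.8 at 60 days and 2.43, 4.85 and 4.07 at 90 days. Libraries 1 and 2 of 30 days were the lowest and library 3 of that day exceeded 2 of the 3 60-day libraries, and its log2 fold change was 0.85 (SE 0.43, adjusted p = 0.46).

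Ccna2, the cyclin A2 gene, had log2 fold changes of 0.60 for 60 against 30 days and -0.39 for 90 against 60 days. The remaining mitotic genes were Bub1 and Bub1b of the spindle checkpoint, Cenpa, Cenpe and Cenpf of the centromere and kinetochore, Tpx2 of spindle assembly, the ubiquitin-conjugating enzyme gene Ube2c, and Prc1 of the central spindle. Their log2 fold changes for 60 against 30 days lay between 0.17 (Cenpa) and 0.58 (Bub1 and Ube2c). For 90 against 60 days they lay between -0.53 (Bub1) and 0.23 (Cenpa).

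**Figure D3:**
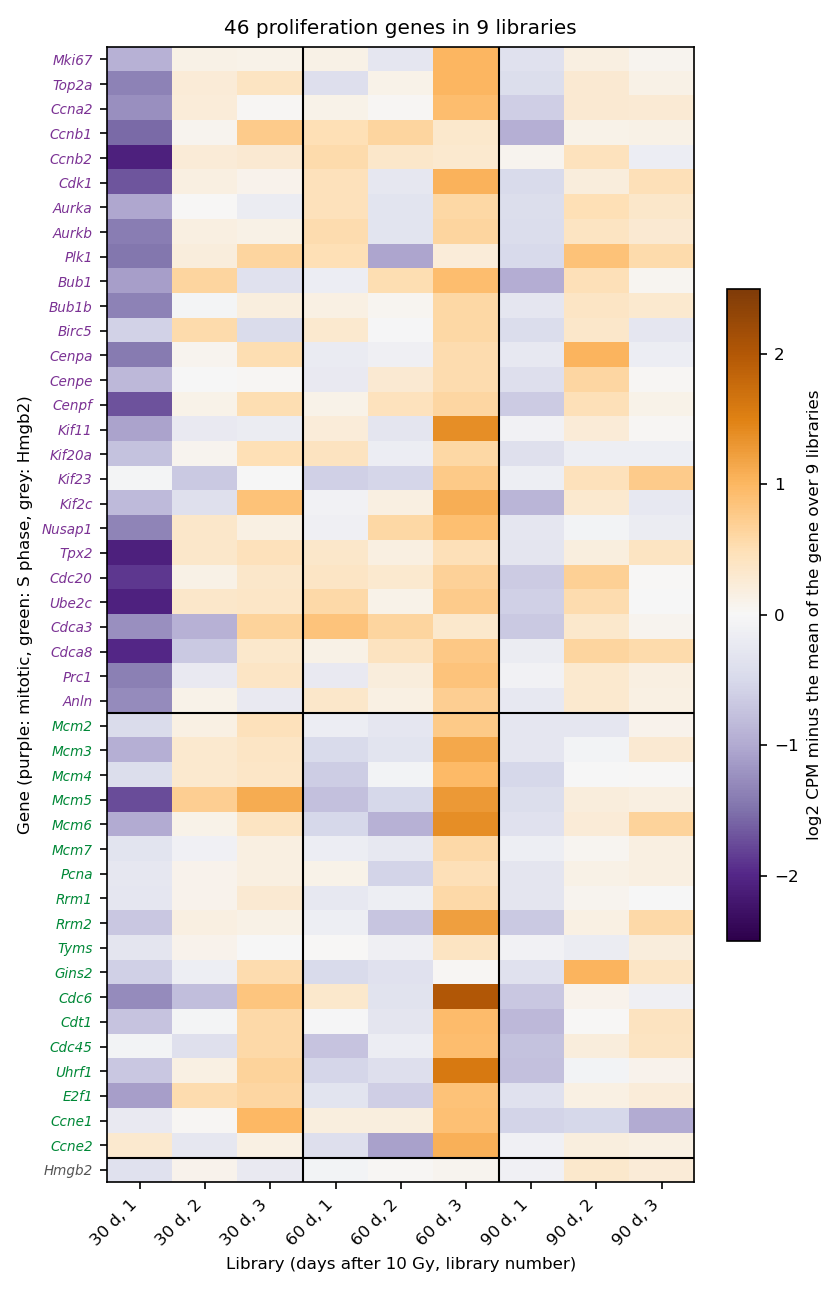
Log2 CPM of each gene (rows) in each library (columns) minus the mean of that gene over the 9 libraries, with mitotic genes named in purple, S-phase genes in green and Hmgb2 in grey. Library 1 of 30 days is the lowest of 9 for 25 of 27 mitotic genes, and library 3 of 60 days the highest of 9 for 16 of 18 S-phase genes.

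In the S-phase class, the 6 Mcm genes encode the subunits of the replicative helicase. Mcm2 (chr6:88883474-88898780, minus strand) measured 11.8, 17.8 and 22.1 CPM at 30 days, 14.4, 13.3 and 27.5 at 60 days and 13.3, 13.2 and 17.2 at 90 days. Day means were 17.2 ± 5.21, 18.4 ± 7.93 and 14.5 ± 2.28 CPM (SD, n = 3), and the log2 fold change for 90 against 30 days was -0.26 (SE 0.31, adjusted p = 0.766). Over the 6 subunits the log2 fold changes lay between -0.15 (Mcm5) and 0.39 (Mcm6) for 60 against 30 days. For 90 against 60 days all 6 lay below 0, between -0.40 (Mcm4) and -0.08 (Mcm7).

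Subunits of this complex differed widely in their spread. Mcm5 (chr8:75109569-75128439, plus strand) measured 1.7, 9.33 and 12.3 CPM at 30 days, 3.32, 3.98 and 13.9 at 60 days and 4.28, 6.57 and 6.38 at 90 days. Its 30-day libraries spanned 1.70 to 12.3 CPM, and its BCV was 0.662, the largest of the 46. Mcm6 (chr1:128331590-128359664, minus strand) measured 6.03, 13 and 15.9 CPM at 30 days, 8.33, 6.29 and 31.2 at 60 days and 9.37, 14.2 and 18.8 at 90 days, with a BCV of 0.575. Mcm7 (chr5:138164583-138172422, minus strand) measured 9.85, 11.5 and 13.7 CPM at 30 days, 11, 10.4 and 18.3 at 60 days and 11.2, 12.8 and 13.8 at 90 days, with a BCV of 0.165. These 3 subunits were singled out after their values were seen. E2F matches were in a promoter of each of the 3, with 2 in Mcm7.

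Pcna, the sliding clamp of the DNA polymerases (chr2:132249162-132253314, minus strand), had the highest level per length of the 46 and measured 21.9, 28 and 29.5 CPM at 30 days, 28.5, 17.9 and 36.6 at 60 days and 21.3, 28.7 and 29.4 at 90 days. Day means were 26.5 ± 4.04, 27.7 ± 9.41 and 26.5 ± 4.48 CPM (SD, n = 3), and the log2 fold change for 90 against 30 days was -0.01 (SE 0.24, adjusted p = 0.995) with a 95% interval of -0.53 to 0.52. Rrm1, the large subunit of ribonucleotide reductase (chr7:102441695-102469771, plus strand), measured 13.3, 17.2 and 19.8 CPM at 30 days, 13.6, 14.6 and 24.2 at 60 days and 13.1, 17 and 16.1 at 90 days. The log2 fold change for 90 against 60 days was -0.19 (SE 0.21, adjusted p = 0.812). Its partner subunit Rrm2, whose protein is made mainly in S phase, had a BCV of 0.436 against 0.176 for Rrm1, and Tyms, the thymidylate synthase, 0.164.

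Among the origin genes, Cdc6, which loads the helicase on origins (chr11:98907801-98923940, plus strand), measured 0.425, 0.594 and 1.84 CPM at 30 days, 1.3, 0.814 and 4.13 at 60 days and 0.641, 1.1 and 0.954 at 90 days. Library 3 of 60 days was above 2 times every other library, and the log2 fold changes were 1.11 (SE 0.62, adjusted p = 0.506) for 60 against 30 days and -1.22 (SE 0.59, adjusted p = 0.49) for 90 against 60 days. Gins2, a subunit of the GINS complex of the active helicase (chr8:120578633-120589304, minus strand), measured 0.922, 1.25 and 2.01 CPM at 30 days, 0.993, 1.09 and 1.42 at 60 days and 1.08, 2.82 and 1.81 at 90 days. It was the S-phase gene above 0 for 90 against 60 days, at 0.70 (SE 0.40, adjusted p = 0.555), where library 2 of 90 days was the highest of all 9. Cdt1, which works with Cdc6, and Cdc45, a helicase cofactor, had log2 fold changes of 0.28 and 0.08 for 60 against 30 days. Uhrf1, which guides DNA methylation onto new strands, reached 25.2 CPM in library 3 of 60 days against 4.92 to 13.1 CPM in the other 8.

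E2f1, the transcription factor of the G1/S wave (chr2:154559407-154569892, minus strand), measured 2.34, 7.31 and 7.76 CPM at 30 days, 4.01, 3.3 and 9.26 at 60 days and 3.91, 5.6 and 5.87 at 90 days. Day means were 5.8 ± 3.01, 5.53 ± 3.26 and 5.13 ± 1.06 CPM (SD, n = 3), and the log2 fold change for 60 against 30 days was -0.08 (SE 0.49, adjusted p = 0.976). Ccne1, the cyclin partner of Cdk2 at S-phase entry (chr7:38097984-38107534, minus strand), measured 0.851, 1.01 and 1.95 CPM at 30 days, 1.12, 1.13 and 1.84 at 60 days and 0.674, 0.688 and 0.502 at 90 days. The 90-day libraries were the 3 lowest of the 9, with log2 fold changes of -1.12 (SE 0.44, adjusted p = 0.356) against 60 days and -1.02 (SE 0.45, adjusted p = 0.252) against 30 days. Ccne2, the second E-type cyclin, stood at 0.00 for 90 against 30 days. Hmgb2, a DNA-bending chromatin protein that is abundant in dividing cells (chr8:57511907-57515999, plus strand), measured 8.93, 12.1 and 9.83 CPM at 30 days, 11, 11.6 and 12.1 at 60 days and 10.6, 14.2 and 13.6 at 90 days. Its BCV of 0.129 was the smallest of the 46, and its log2 fold change for 90 against 30 days was 0.31 (SE 0.16, adjusted p = 0.334).

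Spread between libraries of one day exceeded that of genes of similar level in both classes. The median BCV was 0.305 (range 0.230 to 0.430) over mitotic genes and 0.335 (0.164 to 0.662) over S-phase genes, against 0.147 over all tested genes. All 27 mitotic genes and 16 of 18 S-phase genes lay above the trend of BCV with level, as did 35.4% of all genes. For each of the 46 genes the widest range within a day exceeded the largest difference between day means on the log2 scale, which held for 86.2% of all genes. The classes were spread widest on different days. The median ratio of the highest to the lowest library was 3.35, 1.69 and 1.85 at 30, 60 and 90 days for mitotic genes, and 2.07, 2.92 and 1.5 for S-phase genes (all genes 1.30, 1.33 and 1.26). A ratio over 2 was found at 30, 60 and 90 days for 24, 10 and 9 of 27 mitotic genes and for 9, 13 and 5 of 18 S-phase genes (16.7%, 15.5% and 12.4% of all genes).

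**Figure D4:**
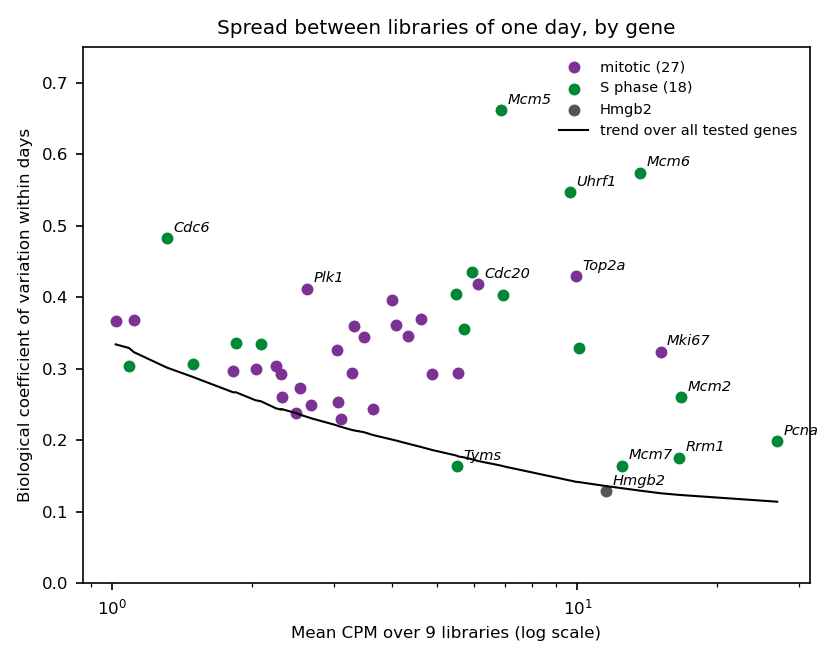
Biological coefficient of variation between libraries of one day (y axis) against mean CPM over 9 libraries (x axis, log scale), with 1 point per gene and the trend over all tested genes as a line. All 27 mitotic genes and 16 of 18 S-phase genes lie above the line, from 0.164 for Tyms to 0.662 for Mcm5 among S-phase genes.

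A pair of libraries held the extreme values of most genes. Library 1 of 30 days was the lowest of 9 for 25 of 27 mitotic and 9 of 18 S-phase genes (18.2% of all genes), the exceptions in the mitotic class being Kif23 and Kif2c. Library 3 of 60 days was the highest of 9 for 20 of 27 mitotic and 16 of 18 S-phase genes (11.0% of all genes), the S-phase exceptions being Ccne1 and Gins2. Library 1 of 90 days was the lowest of its day for 26 of 27 mitotic and 15 of 18 S-phase genes (33.9% of all genes).

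Genes of a class varied together between libraries of a day. After the day means were taken out, the log2 CPM of a mitotic gene had a median Pearson r of 0.898 with the sum of the other mitotic genes over the 9 libraries, lowest at 0.313 for Kif23. For S-phase genes the median r was 0.923, lowest at 0.673, and the 2 class sums had an r of 0.838 with each other. Over all tested genes the median r was 0.009 with the mitotic sum and 0.027 with the S-phase sum. These r values describe 9 libraries that share their scaling.

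The genes outside the list whose residual pattern was nearest to the mitotic sum, among 12960 searched, were Herc6, Tmem229b, Diaph3, Kifc1 and Timm10 (r from 0.987 to 0.993 over 9 libraries). Kifc1, a spindle kinesin, measured 0.922, 2.62 and 3.67 CPM at 30 days, 2.37, 1.99 and 3.88 at 60 days and 1.85, 3.68 and 2.86 at 90 days. For the S-phase sum they were Prickle2, Tonsl, Chaf1b, Dtl and Hells (r from 0.974 to 0.994). Chaf1b, a subunit of the chromatin assembly factor at replication forks, measured 1.35, 2.91 and 3.73 CPM at 30 days, 1.64, 1.22 and 8.64 at 60 days and 1.79, 2.37 and 3.41 at 90 days. Dtl, which targets licensing factors for degradation in S phase, measured 0.78, 1.66 and 2.31 CPM at 30 days, 0.95, 0.859 and 7.97 at 60 days and 1.18, 2.34 and 2.66 at 90 days. Kifc1, Chaf1b and Dtl were picked from these genes for their known roles and were not the nearest. The largest r belonged to Herc6 (0.993) for the mitotic sum and to Prickle2 (0.994) for the S-phase sum. With so many genes searched over 9 libraries, the r values are a description of the nearest genes only.

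Leaving out single libraries shifted the class medians. Without library 1 of 30 days, the mitotic median for 60 against 30 days was 0.22 in place of 0.54, and for 90 against 30 days it was -0.11 with 9 of 27 genes above 0. Without library 3 of 60 days, the S-phase median for 60 against 30 days was -0.37 with 2 of 18 above 0, and for 90 against 60 days 0.23 with 16 of 18 above 0. The mitotic median for 90 against 60 days was then -0.06. With both of these libraries out, the mitotic median for 60 against 30 days was 0.01 with 15 of 27 above 0, and the S-phase median -0.57 with 0 of 18 above 0. Mcm5 (log2 fold change -1.56, adjusted p = 0.00174) and E2f1 (-1.04, adjusted p = 0.0485) then passed edgeR's test for 60 against 30 days, and Mcm5 (-0.92, adjusted p = 0.0299) for 90 against 30 days. That pair of libraries was picked on the values of these same genes, so the calls are not independent evidence. Without library 3 of 30 days, Cdca3 passed for 60 against 30 days (1.69, adjusted p = 0.0168), and no gene passed when any other single library was left out.

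**Figure D5:**
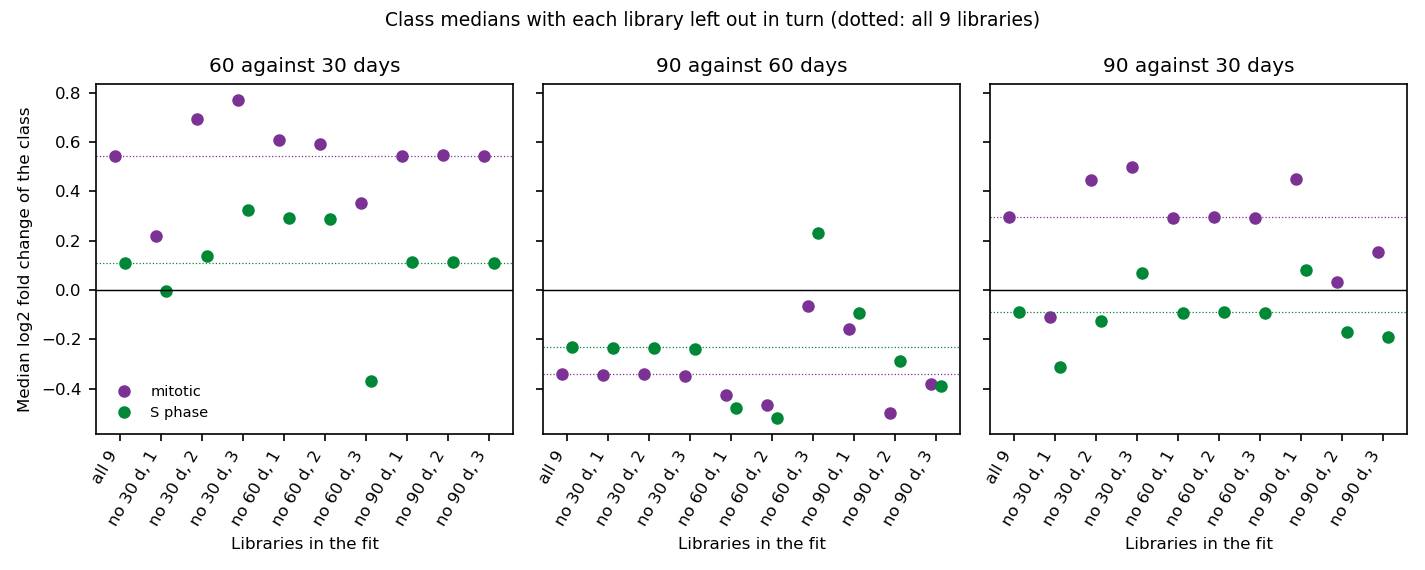
Median log2 fold change of the mitotic (purple) and S-phase (green) genes (y axis) for each pair of days, with all 9 libraries and with each library left out in turn (x axis). For 60 against 30 days the S-phase median drops from 0.11 to -0.37 without library 3 of 60 days, and the mitotic median from 0.54 to 0.22 without library 1 of 30 days.

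Other lists of cell cycle genes were read the same way. Of 43 kinetochore, spindle and chromosome structure genes, 0 passed in any contrast by edgeR, with 3, 1 and 1 at an unadjusted p under 0.05 and medians of 0.32 (37 above 0), -0.34 (8 above 0) and 0.08 (26 above 0) for 60 against 30, 90 against 60 and 90 against 30 days. Of 41 replication origin, fork and polymerase genes, 0 passed, with 1, 0 and 1 at an unadjusted p under 0.05 and medians of 0.10, -0.01 and -0.01. Of 16 genes for E2F, MuvB and FoxM1 regulators, 0 passed, with 2, 0 and 2 at an unadjusted p under 0.05 and medians of 0.15, 0.06 and 0.16. DESeq2 and limma-voom also called 0 genes of these 3 lists, except E2f5 by DESeq2 for 90 against 30 days. Foxm1, the forkhead factor of the mitotic wave, measured 1.49, 2.73 and 5.62 CPM at 30 days, 3.93, 3.62 and 7.43 at 60 days and 2.9, 3.64 and 3.06 at 90 days. It was highest in library 3 of 60 days and lowest in library 1 of 30 days. Mybl2, which encodes B-Myb, did not share that order. It measured 0.709, 0.832 and 0.888 CPM at 30 days and 0.734, 0.633 and 0.835 at 60 days. At 90 days Mybl2 measured 1.01, 1.34 and 0.351 CPM, its highest value in library 2 and its lowest in library 3 of that day.

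Of 13 listed cell cycle inhibitors 12 were tested. Among them Cdkn1a, which encodes the p53 target and kinase inhibitor p21, measured 25.1, 19.7 and 25 CPM at 30 days, 11.5, 10.7 and 11.7 at 60 days and 11.6, 24.8 and 15.2 at 90 days. Every 60-day library lay below every 30-day library, and Cdkn1a fell by 1.04 on the log2 scale for 60 against 30 days (SE 0.23, edgeR adjusted p = 0.0412, 1 of 12 inhibitors against 1.56% of all genes). It no longer passed without any single 30-day or 60-day library and without library 3 of 90 days (adjusted p = 0.0589 to 0.218), with library-size scaling alone (0.0885) and with limma-voom (0.0837). In library 2 of 90 days Cdkn1a stood within the 30-day range. Gadd45a, a stress-induced growth arrest gene, measured 7.51, 6.84 and 7.99 CPM at 30 days, 11.4, 8.41 and 7.05 at 60 days and 9.61, 16 and 17 at 90 days. It rose for 90 against 30 days on the log2 scale by 0.93 (SE 0.22, adjusted p = 0.0225), a call lost without libraries 1 or 2 of 30 days or libraries 2 or 3 of 90 days (adjusted p = 0.104 to 0.116) and with limma-voom (0.0846). It was 1 of 12 inhibitors called there, against 3.57% of all genes. Of 7 G1 cyclins and kinases, Ccnd3, the cyclin D3 gene, measured 37.6, 35.4 and 35.3 CPM at 30 days, 43.6, 43 and 38.3 at 60 days and 48.6, 49.2 and 44.9 at 90 days. It rose for 90 against 30 days by 0.40 (SE 0.10, adjusted p = 0.030), 1 of 7 on its list against 3.57% of all genes. That call did not hold without any single 30-day or 90-day library and without library 2 of 60 days (adjusted p = 0.0533 to 0.153).

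Of the genes listed as granular duct and acinar markers, all 5 granular duct genes and 7 of 8 acinar genes were among the tested genes, while Smr3a of the acinar list had 1 count in library 2 of 90 days and 0 in the others. Markers of the cells in the gland varied between the same libraries. Summed CPM of 8 acinar markers ran from 310200 in library 2 of 90 days to 645600 in library 1 of 30 days, the library with the lowest mitotic sum, and was 364600 in library 3 of 60 days. That sum is mostly Mucl2 and Prol1, and the other acinar markers differed among themselves. Aqp5 was highest of the 9 in library 1 of 30 days, at 522.8 CPM. Pip (12560 CPM) and Bhlha15 (379.7 CPM) were highest of their day in that library. In library 3 of 60 days Pip (11710 CPM) and Bhlha15 (469.8 CPM) were lowest of their day. Bpifa2, a secreted salivary protein gene, measured 14.1, 50.5 and 64.8 CPM at 30 days, 50.6, 45.2 and 214.8 at 60 days and 72.2, 403.5 and 222.9 at 90 days. Dcpp1, another secretory gene, measured 0.0709, 1.13 and 1.42 CPM at 30 days, 1.81, 1.58 and 7.51 at 60 days and 1.08, 7.60 and 4.52 at 90 days. Like most proliferation genes, Bpifa2 and Dcpp1 were lowest of the 9 in library 1 of 30 days and highest of their day in library 3 of 60 days. By day the acinar sums ran from 456000 to 645600, from 364600 to 530900 and from 310200 to 457200 CPM. The 5 granular duct markers summed to 18310 to 23560 CPM at 30 days, lowest in library 1, to 28990 to 34360 CPM at 60 days and to 24920 to 31610 CPM at 90 days, so every 60-day library lay above every 30-day library. Egf, the epidermal growth factor gene of these ducts, measured 811 to 1698 CPM at 30 days, 4941 to 6815 at 60 days and 4116 to 6942 at 90 days. Ren1, the renin gene, measured 1.70 to 4.56, 20.5 to 42.5 and 14.1 to 24.1 CPM. The 5 macrophage markers summed to between 95.1 CPM (library 1 of 30 days) and 214 CPM (library 2 of 90 days), and by day from 95.1 to 184, from 123 to 136 and from 127 to 214 CPM. The 7 T cell markers summed by day to 0.992 to 1.78, 1.34 to 2.89 and 3.74 to 10.6 CPM, highest in library 2 of 90 days. Every 90-day library thus lay above every library of 30 and 60 days in this sum. The 9 B cell and lymph node markers summed to 0.407 to 1.01 CPM in 8 libraries and to 8.08 CPM in library 2 of 90 days, with Ccl21a at 0 in all 9. In library 3 of 60 days, where most proliferation genes were highest, the T cell sum was 2.25 CPM and the B cell sum 0.876 CPM, within the range of the other libraries of 30 and 60 days. The part of cell composition in the differences between libraries was not tested.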

How the data were processed

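RNA sequencing measured gene-level read counts in 9 libraries. The authors deposited raw counts per gene, made with fastp, STAR and featureCounts on mm10 per the submitters' processing notes; versions, annotation, strand setting and the treatment of reads with several alignments are not given in the sources used here. Identifiers were matched to symbols for 54409 of 54532 rows and to GENCODE M21 positions for 54495, and 3 count columns that match no sample were not used. Library totals of 16541396 to 26065856 set the counting precision.

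Genes passing edgeR's filter (minimum count 10) were scaled by TMM and fitted over all 9 libraries with 1 mean per day and no block, using the quasi-likelihood test (edgeR 4.0.16, R 4.3.3) and Benjamini-Hochberg adjustment over 15224 genes at 0.05. The script was tested on simulated data. Standard errors and 95% intervals came from the same fit, and exon lengths for RPKM from GENCODE. Alternatives were other scalings, DESeq2 1.42.0, limma-voom (limma 3.58.1), other filters, the 6 libraries of a contrast alone, each library left out, a block for library number, and 1 alternative chosen after seeing the data, which left out 2 libraries together. Full values are given for members with the 5 smallest p-values per contrast, for the 3 of highest mean CPM per class, and for Mki67, Top2a, Cdk1, Ccnb1, Pcna, Mcm2, E2f1 and Hmgb2, 21 genes in all. Ccnb2, Mcm5, Mcm6, Mcm7 and Uhrf1, and genes named from the other lists, were chosen after their values were seen. The members, lists and motifs were chosen with earlier results of these data known. Figures were drawn with matplotlib 3.10.9.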

Additional observations from a re-analysis of the deposited data

How the results depend on the processing

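The count of genes past edgeR's adjusted threshold stayed at 0 under every scaling, DESeq2, limma-voom and the fit on 6 libraries. Without a filter on low counts it was 2 for 60 against 30 days (Kif11, adjusted p = 0.0183, and Cdca3, 0.0416) and 2 for any difference, and the cause was not tested. Leaving out each library in turn gave 0 to 1 for 60 against 30 days, 0 to 1 for any difference and 0 otherwise. With library 1 of 30 days and library 3 of 60 days both out, 60 against 30 days gave 2 calls, 90 against 30 days 1 and the test of any difference 1, and the S-phase median for 60 against 30 days was -0.57. Over single libraries left out, the mitotic medians ran from 0.22 to 0.77, from -0.50 to -0.06 and from -0.11 to 0.50, and the S-phase medians from -0.37 to 0.33, from -0.52 to 0.23 and from -0.31 to 0.08 (60 against 30, 90 against 60 and 90 against 30 days). Scaling by library size alone moved the median of all genes to 0.17 for 90 against 60 days and 0.24 for 90 against 30 days, where the S-phase median became 0.10.

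The labels do not say that equal library numbers mark shared animals, and deviations of same-numbered libraries had r from -0.06 to 0.19, with 4 of 9 libraries nearest to one of their own number. With the replicate block, 0 genes passed in each of the 4 tests (smallest adjusted p = 0.161, 0.369, 0.133 and 0.156), 11 in place of 3 had an unadjusted p under 0.05 for 60 against 30 days, and the medians were 0.61, -0.36 and 0.35 for mitotic and 0.09, -0.14 and -0.03 for S-phase genes. The share of all genes at that unadjusted threshold was not computed with the block, so the count of 11 has no background. At 3 libraries per day the printed standard errors and intervals limit what could be detected.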
